A study of Mus musculus with 11 samples.

Results

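The miR-17-92 cluster, a group of microRNAs cut from the noncoding transcript Mir17hg, was described in the small RNA libraries of mouse spermatogonial progenitor cells (SPCs). Its members were all mature miRNAs whose name has the stem miR-17, miR-18a, miR-19a, miR-20a, miR-19b or miR-92a, whichever arm of the hairpin they come from. This gave 13 of the 1096 mature miRNAs measured, of which 6 are the guide strands, the arm that usually enters the silencing complex, and 7 are passenger strands from the opposite arm. SPCs are germ cells of the young mouse testis, and here they were Thy1-positive cells grown on STO feeder cells, which are mitotically inactivated mouse embryonic fibroblasts. The labels give the strain as C57BL/6 and the age as postnatal day 6, while the culture protocol names B6;129S-Gt(Rosa)26Sor/J pups of 6 to 8 days. Control cells were transduced with the lentiviral control vector (shVector, genotype label Mov10 Vector) and Mov10 knockdown cells with a pLKO.1 vector carrying an shRNA against Mov10, which encodes an RNA helicase. Each group has 1 small RNA library, so no value below has a replicate error, and every interval covers counting error alone. Mov10 mRNA is not read by small RNA libraries, and its depletion was not checked here.

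The transcript Mir17hg is cut in the nucleus by Drosha and in the cytoplasm by Dicer, so that a single primary transcript gives rise to several miRNAs. A miRNA pairs with its targets mainly through the seed, the bases from position 2 to position 8 counted from the 5′ end, and miRNAs with the same seed are grouped as a family. The cluster is known for supporting proliferation and survival, and it is active in many stem and progenitor cells, including spermatogonia. In GENCODE vM21 on GRCm38, Mir17hg lies on the plus strand of chromosome 14 from 115042879 to 115046727 and has 2 exons. All 6 hairpins lie within exon 2, in the order Mir17, Mir18, Mir19a, Mir20a, Mir19b-1 and Mir92-1, and together span 836 bp from chr14:115043671 to 115044506. Neighbouring hairpins are separated by 35 to 96 bp.

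The guide strands are shown because their seeds divide the cluster into 4 families, along which the values below are ordered. RefSeq (GRCm38.p6) gave a mature sequence for 12 of the 13 members, and miR-19a-5p is given by name. Capitals mark the seed, and all sequences read 5′ to 3′.
miR-17-5p: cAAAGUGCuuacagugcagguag
miR-20a-5p: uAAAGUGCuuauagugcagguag
miR-18a-5p: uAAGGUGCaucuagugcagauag
miR-19a-3p: uGUGCAAAucuaugcaaaacuga
miR-19b-3p: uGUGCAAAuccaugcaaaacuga
miR-92a-3p: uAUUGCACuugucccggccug
miR-17-5p and miR-20a-5p share the seed AAAGUGC and are equal at 21 of 23 positions, with the differences C1U and C12U from miR-17-5p to miR-20a-5p, counted from the 5′ end. miR-18a-5p has the seed AAGGUGC, which differs from theirs at a single base, and is equal to miR-20a-5p at 19 of 23 positions. miR-19a-3p and miR-19b-3p share the seed GUGCAAA and differ only by U11C. miR-92a-3p has the seed AUUGCAC. The authors mapped reads without base mismatch, so reads of miR-19a-3p and miR-19b-3p that cover position 11 are told apart.

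The guide strands miR-19b-3p and miR-92a-3p are each produced by a second hairpin on the X chromosome, in the paralogous miR-106a-363 cluster. The 4 hairpins are shown with the guide strand in capitals, since the capitals are identical within each pair while the rest of the hairpin is not.
Mir19b-1: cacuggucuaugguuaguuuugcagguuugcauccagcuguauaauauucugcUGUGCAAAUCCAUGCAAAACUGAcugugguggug
Mir19b-2: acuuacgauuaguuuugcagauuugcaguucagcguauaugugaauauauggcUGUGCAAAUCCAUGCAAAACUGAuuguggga
Mir92-1: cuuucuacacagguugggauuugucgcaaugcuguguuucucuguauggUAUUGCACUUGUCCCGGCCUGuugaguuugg
Mir92-2: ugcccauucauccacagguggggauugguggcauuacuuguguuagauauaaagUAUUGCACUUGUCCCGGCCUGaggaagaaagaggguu
Mir19b-1 lies at chr14:115044305-115044391 and Mir92-1 at chr14:115044427-115044506, both on the plus strand. Mir19b-2 lies at chrX:52741983-52742066 and Mir92-2 at chrX:52741838-52741928, both on the minus strand. Reads on the capitals carry no information on the hairpin they came from, and the deposited tables give 1 value for each pair. The passenger strands differ between the hairpins and can be counted apart. That of Mir92-1, miR-92a-1-5p, had 7301 reads in control and 2187 in knockdown SPCs, whereas that of Mir92-2, miR-92a-2-5p, had 0 and 1. A count of 0 in the control allows up to 3 reads, or 0.285 TPM. miR-19b-2-5p was not found among the miRNAs measured. Of the guide strands that only 1 of these clusters makes, miR-17-5p, miR-18a-5p, miR-19a-3p and miR-20a-5p together had 7897 reads in the control, 43.9 times the 180 reads of miR-106a-5p, miR-18b-5p, miR-20b-5p and miR-363-3p.

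The control library had 9628835 reads on miRNAs and the knockdown library 2794593. TPM here is reads per 1000000 of the total of the same library, uncorrected for length, and that total was 10518277 reads in control and 3194363 in knockdown SPCs. A single read was therefore worth 0.0951 TPM in control and 0.313 TPM in knockdown SPCs. Differences between the libraries are given as the log2 ratio of TPM + 0.1, knockdown over control, with an exact 95% interval of the read ratio. A miRNA was called reduced or raised when this ratio passed 1.5-fold and its TPM was over 1.5 in the higher library. By this rule 252 of 607 miRNAs were called reduced (41.5%) and 96 raised (15.8%), with a median log2 ratio of -0.37 over the 607. Because the totals differ, a ratio near 0 in TPM still stands for fewer reads in the knockdown library.

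In control SPCs the 6 guide strands had 294898 reads, 3.06% of all miRNA reads, and in Mov10 knockdown SPCs they had 67359 reads, 2.41%. miR-92a-3p was far above the others, at 26727 TPM (281125 reads) in control and 19703 TPM (62937 reads) in knockdown SPCs. By reads it held rank 9 of the 1096 miRNAs in control and rank 11 in knockdown SPCs. miR-19b-3p followed at 558.6 TPM in control and 823.3 TPM in knockdown SPCs. miR-17-5p and miR-20a-5p were close to each other in the control, at 306.4 TPM (95% exact Poisson interval 295.9 to 317.2) and 285.1 TPM (275.0 to 295.5). In the knockdown their order was the opposite, with miR-20a-5p at 214.1 TPM (198.4 to 230.8) and miR-17-5p at 184.1 TPM (169.5 to 199.6). These intervals overlap slightly, which is not a direct comparison of the 2 miRNAs. miR-19a-3p had 98.8 TPM in control and 124.0 TPM in knockdown SPCs, and miR-18a-5p was the lowest guide strand in both, at 60.5 and 38.8 TPM. By reads the 6 guide strands ran from rank 9 to rank 239 in the control, and miR-17-5p, miR-18a-5p, miR-19a-3p and miR-20a-5p, which have no second hairpin, from rank 121 to rank 239.

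**Figure D1:**
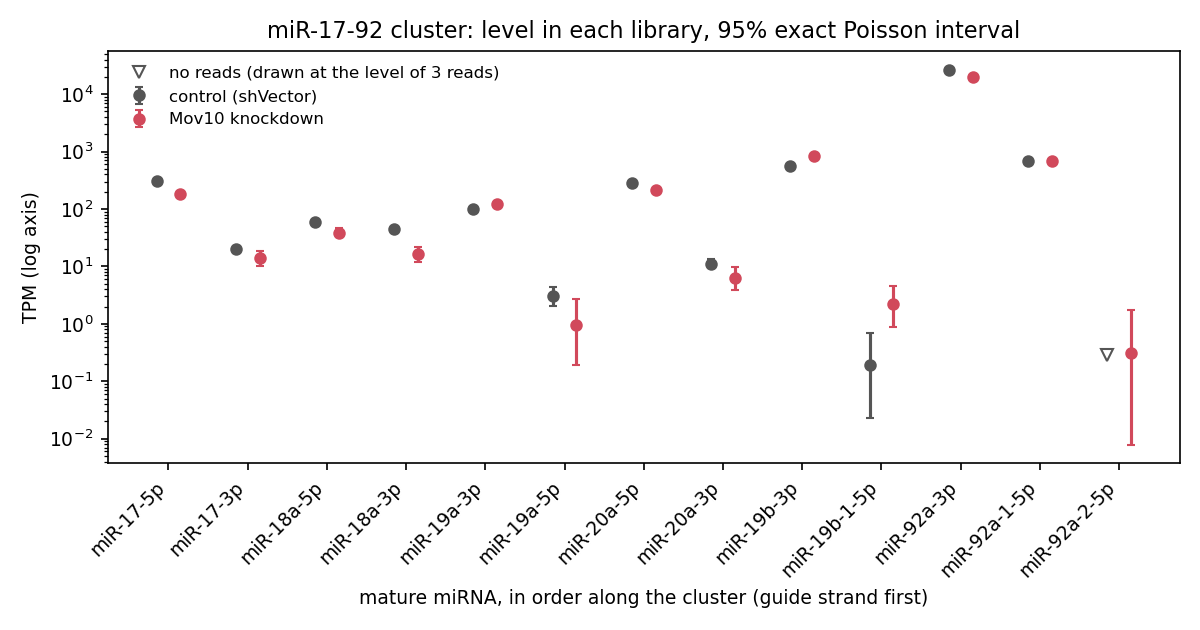
Level of each of the 13 mature miRNAs in TPM on a log axis, ordered along the cluster with the guide strand first, in the control library (grey) and the Mov10 knockdown library (red). Bars are 95% exact Poisson intervals, and the open triangle, drawn at the level of 3 reads, marks 0 reads of miR-92a-2-5p in the control. miR-92a-3p lies above all others, and miR-19a-3p and miR-19b-3p are the guide strands whose red point lies above the grey point.

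In the knockdown library 4 guide strands were lower than in the control and 2 were higher. miR-17-5p had 3223 reads in control and 588 in knockdown SPCs, and its log2 ratio of TPM was -0.73 (95% interval -0.86 to -0.61), the lowest of the 6. miR-18a-5p had 636 and 124 reads and a log2 ratio of -0.64 (-0.93 to -0.36). These 2 guide strands were called reduced, which is 2 of 6 against 41.5% of all miRNAs. miR-20a-5p had 2999 and 684 reads and a log2 ratio of -0.41 (-0.54 to -0.29). miR-92a-3p, with the narrowest interval, was at -0.44 (-0.45 to -0.43). The values of miR-20a-5p and miR-92a-3p were under 1.5-fold and close to the median of all miRNAs. The log2 ratio of these 4 guide strands was below 0 under each of the scalings tried, although neither miR-17-5p nor miR-18a-5p was past 1.5-fold after scaling by the median ratio or by TMM factors, nor miR-18a-5p with reads on miRNAs as the total.

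The miR-19 pair stood on the other side of 0. miR-19b-3p had 5876 reads in control and 2630 in knockdown SPCs, and its log2 ratio was 0.56 (95% interval 0.49 to 0.63). This is 1.47-fold, just under the threshold, and it passed 1.5-fold when the reads on miRNAs, the median ratio or TMM factors set the scale. miR-19a-3p had 1039 and 396 reads and a log2 ratio of 0.33 (0.16 to 0.50). No guide strand was called raised, against 15.8% of all miRNAs. With both libraries divided by the same total of 30000000 reads, which compares read numbers directly, miR-19a-3p turned to -1.38 and miR-19b-3p to -1.16, and all 6 guide strands were below 0. The intervals of the log2 ratio lay wholly below 0 for 4 of 6 guide strands, against 41.5% of all miRNAs, and wholly above 0 for 2 of 6, against 20.3%. An interval narrows as reads increase, so these shares also depend on abundance, and no comparison at matched read numbers was made. The median over the 6 was -0.43, beside -0.37 over all 607 miRNAs, and the log2 ratio of their summed TPM, which is nearly that of miR-92a-3p, was -0.41 (-0.42 to -0.40). Without miR-92a-3p the sum was at 0.08 (0.03 to 0.13).

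**Figure D2:**
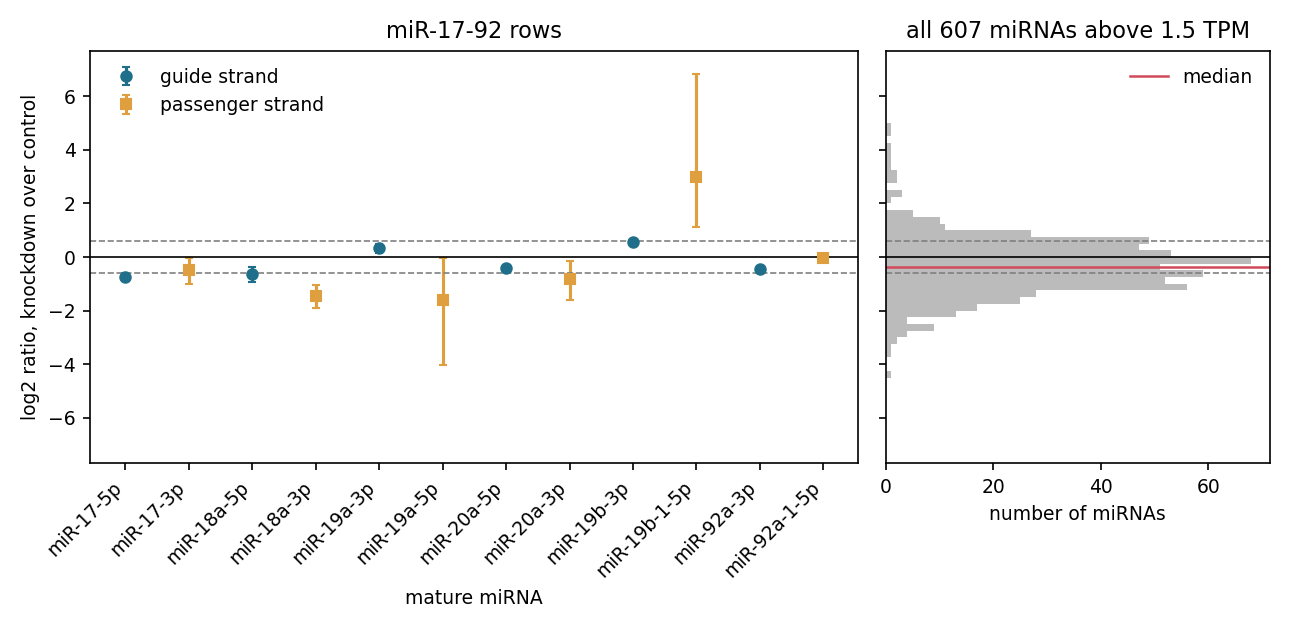
Left, log2 ratio of TPM + 0.1 (knockdown over control) of the 12 members above 1.5 TPM, with guide strands as circles, passenger strands as squares and exact 95% counting intervals as bars. Right, the same quantity for all 607 miRNAs above this level as a histogram with its median at -0.37, and dashed lines at 1.5-fold. The guide strands lie between -0.73 and 0.56, well inside the histogram.

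Ratios between members of the cluster do not depend on the library total. The number of miR-17-5p reads per miR-19b-3p read was 0.549 in control and 0.224 in knockdown SPCs, a ratio of 0.408 between the libraries (exact 95% interval 0.368 to 0.450). For miR-19b-3p against miR-92a-3p the ratio between the libraries was 2.00 (1.91 to 2.10), and for miR-19a-3p against miR-92a-3p it was 1.70 (1.51 to 1.91). Of the 15 pairs of guide strands, 11 had an interval that excludes a ratio of 1. The exceptions were miR-18a-5p against miR-17-5p, miR-20a-5p and miR-92a-3p, and miR-20a-5p against miR-92a-3p, the last at 1.02 (0.94 to 1.11). The 8 pairs that set a miR-19 guide strand against another guide strand all had intervals on the same side, between 1.67-fold for miR-19a-3p against miR-20a-5p and 2.45-fold for miR-19b-3p against miR-17-5p. The 2 pairs that share a seed also had intervals that exclude 1. miR-17-5p against miR-20a-5p was at 0.800 (0.707 to 0.904), and miR-19a-3p against miR-19b-3p at 0.852 (0.750 to 0.966).

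The make-up of the guide reads differed between the libraries. miR-92a-3p made up 95.3% of them in the control (exact binomial 95% interval 95.25 to 95.41%) and 93.4% in the knockdown (93.25 to 93.62%). miR-19b-3p made up 1.99% (1.94 to 2.04%) and 3.90% (3.76 to 4.05%). Among the 5 guide strands other than miR-92a-3p, the share of miR-19b-3p was 42.7% in control and 59.5% in knockdown SPCs. miR-17-5p went the other way in this set, from 23.4% to 13.3%, and miR-20a-5p from 21.8% to 15.5%. The share of miR-18a-5p was 4.62% and 2.80%, and that of miR-19a-3p was 7.54% and 8.96%. Without both guide strands that the X chromosome can also make, miR-19a-3p still had the larger share in the knockdown, 22.1% (20.2 to 24.1%) against 13.2% (12.4 to 13.9%).

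**Figure D3:**
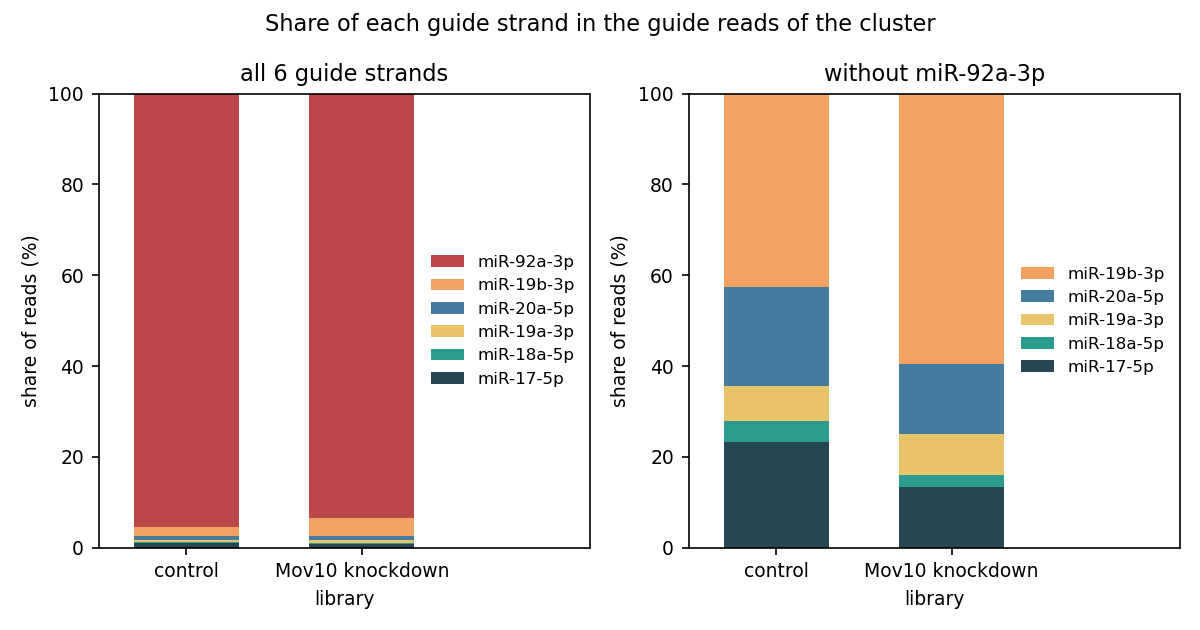
Share of reads (%) of each guide strand among all 6 guide strands (left) and among the 5 without miR-92a-3p (right), in the control and the Mov10 knockdown library. miR-92a-3p takes 95.3% and 93.4% of all guide reads, and among the others the block of miR-19b-3p is 42.7% in control and 59.5% in knockdown SPCs.

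The 7 passenger strands were less abundant than their guide strands, with very unlike arm use between hairpins. The passenger strands that the results turn on are printed here with the seed in capitals.
miR-18a-3p: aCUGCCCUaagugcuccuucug
miR-92a-1-5p: aGGUUGGGauuugucgcaaugcu
miR-18a-3p had 471 reads (44.8 TPM) in control and 52 (16.3 TPM) in knockdown SPCs, and its log2 ratio of -1.45 (95% interval -1.90 to -1.04) was the lowest of all members with more than 3 reads in both libraries. The guide strand made up 57.5% of the reads of both arms of Mir18 in the control (exact binomial 95% interval 54.5 to 60.4%) and 70.5% in the knockdown (63.1 to 77.1%). The ratio of guide to passenger reads was 1.77 times higher in the knockdown (exact 95% interval 1.24 to 2.55). miR-92a-1-5p had 694.1 TPM in control and 684.6 TPM in knockdown SPCs, above miR-17-5p in both libraries, and its log2 ratio was -0.02 (-0.09 to 0.05). Since miR-92a-3p was lower in the knockdown, the ratio of guide to passenger reads of miR-92a was 0.747 times that of the control (0.712 to 0.785). The guide share itself stayed high, at 97.5% in control and 96.6% in knockdown SPCs.

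The other passenger strands were scarce. miR-17-3p had 210 reads in control and 45 in knockdown SPCs, with a log2 ratio of -0.50 (-1.001 to -0.033), and miR-20a-3p had 117 and 20 reads, with -0.82 (-1.59 to -0.14). Both lay on the same side as their guide strands, and the interval of the guide to passenger ratio included 1 for Mir17 (0.606 to 1.22) and for Mir20a (0.819 to 2.28). miR-19a-5p had 32 reads in control and 3 in knockdown SPCs and was at -1.60 (-4.05 to -0.02), on the opposite side from its guide strand, so that the guide to passenger ratio of Mir19a was 4.06 times higher (1.26 to 20.9). miR-19b-1-5p had 2 reads in control and 7 in knockdown SPCs, and its log2 ratio of 2.98 has an interval from 1.13 to 6.83. The ratio of miR-19b-3p, which pools both of its hairpins, to miR-19b-1-5p was 0.128 times that of the control (0.013 to 0.672). With miR-92a-2-5p at 0 and 1 read, both under the limit of 3 reads, no ratio is given. Of the 13 members, 12 were above 1.5 TPM in the higher library, and 5 of these were called reduced and 1 raised, against 41.5% and 15.8% of all miRNAs. The 5 were miR-17-5p, miR-18a-5p and the passenger strands miR-18a-3p, miR-19a-5p and miR-20a-3p, and the raised member was miR-19b-1-5p. The control count of miR-19b-1-5p is under the limit of 3 reads. It was no longer called when 1.5 TPM was required in both libraries. After scaling by the median ratio, 2 members were called reduced and 2 raised, with 191 and 144 among all miRNAs. How many miRNAs lay above 1.5 TPM under this scaling was not counted, so no share is given.

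**Figure D4:**
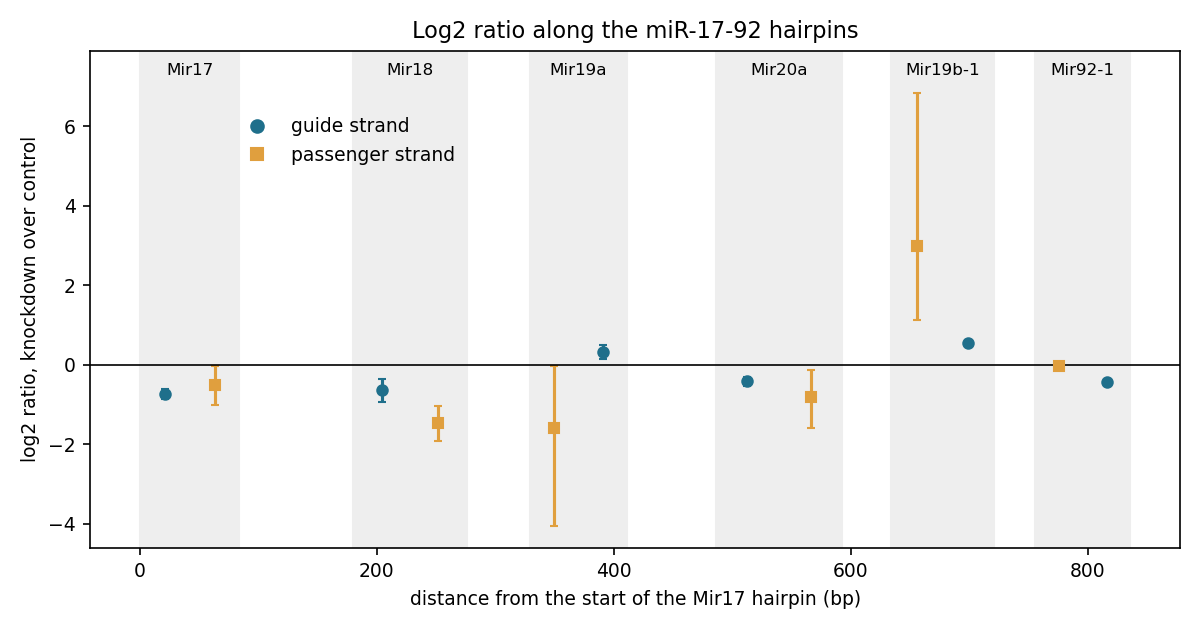
Log2 ratio of TPM + 0.1 (knockdown over control) of the 12 members above 1.5 TPM, drawn along the 6 hairpins of the cluster (grey) by distance in bp from the start of Mir17, each point on its arm of the hairpin and not at its exact position. Bars are exact 95% counting intervals. The guide strands on Mir19b-1 and Mir92-1 include reads of their X-chromosome hairpins. miR-19a-3p lies above 0 at 0.33, between miR-18a-5p at -0.64 and miR-20a-5p at -0.41.

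The order of the hairpins and the order of the ratios were not the same. Along the transcript the log2 ratios of the guide strands were -0.73, -0.64, 0.33, -0.41, 0.56 and -0.44, where those of miR-19b-3p and miR-92a-3p pool reads of the X-chromosome hairpins. Among the guide strands with a single hairpin, miR-19a-3p was above 0 and lies between miR-18a-5p and miR-20a-5p, which were below 0. The guide strands of Mir17, Mir18 and Mir20a come from the 5′ arm and were all below 0. Those of Mir19a, Mir19b-1 and Mir92-1 come from the 3′ arm, of which miR-92a-3p was below 0 and the others above. Among the guide strands the GC content of the mature sequence was lowest in miR-19a-3p at 34.8%, equal in miR-19b-3p and miR-20a-5p at 39.1%, and highest in miR-92a-3p at 57.1%.

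A seed is shared with miRNAs from outside the cluster, and these were listed from the 908 of 1096 miRNAs with a RefSeq sequence. With the seed AAAGUGC, miR-93-5p and miR-106b-5p of the miR-106b-25 cluster and miR-20b-5p and miR-106a-5p of the miR-106a-363 cluster were found. miR-93-5p was the most abundant of them, with 4205 TPM in control and 3696 TPM in knockdown SPCs, and miR-17-5p and miR-20a-5p together made up 11.7% of the reads with this seed in control and 9.25% in knockdown SPCs. miR-93-5p was at a log2 ratio of -0.19 (-0.22 to -0.16) and miR-106b-5p at -0.15 (-0.28 to -0.03), both above the log2 ratios of the members. Against miR-93-5p, the ratio between the libraries was 0.683 for miR-17-5p (exact 95% interval 0.623 to 0.748) and 0.854 for miR-20a-5p (0.783 to 0.931). Against miR-106b-5p, it was 0.668 (0.590 to 0.757) and 0.835 (0.740 to 0.943). miR-20b-5p had 61 reads in control and 14 in knockdown SPCs, and miR-106a-5p had 38 and 3.

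miR-92a-3p gave 53.9% of the reads with the seed AUUGCAC in control and 55.5% in knockdown SPCs. miR-25-3p of miR-106b-25 was next, with 15840 and 13316 TPM and a log2 ratio of -0.25 (-0.27 to -0.24), and the ratio of miR-92a-3p to it was 0.877 times that of the control (0.865 to 0.889). miR-92b-3p, whose level was 6997 TPM in control and 2458 TPM in knockdown SPCs, was at -1.51 (-1.54 to -1.48). The ratio of miR-92a-3p to miR-92b-3p was therefore 2.10 times higher in the knockdown (2.05 to 2.15). miR-363-3p had 70 and 7 reads, and miR-32-5p, at 229 and 90 reads, had a log2 ratio of 0.37 (0.004 to 0.73). The seed AAGGUGC was shared with miR-18b-5p alone, which had 11 reads in control and 2 in knockdown SPCs, so that miR-18a-5p gave 98.3% of its control reads. For GUGCAAA no miRNA outside the cluster was found, and the summed log2 ratio of this family was 0.53 (0.46 to 0.59), or -1.19 under the common total. The sums were at -0.23 for AAAGUGC, which turned to 0.026 after median ratio scaling, -0.64 for AAGGUGC and -0.48 for AUUGCAC, both of the last below 0 under each scaling tried.

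**Figure D5:**
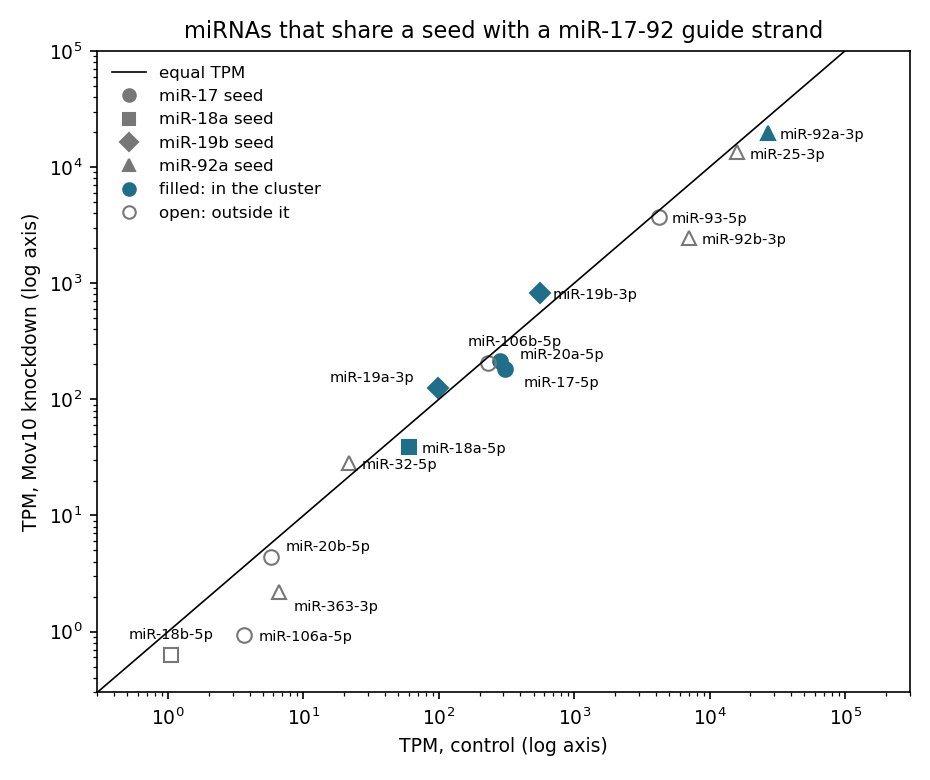
TPM in the Mov10 knockdown library against TPM in the control library, both on log axes, for each miRNA that shares its seed with a guide strand of the cluster. Symbols give the seed, filled symbols are members, open symbols are not, and the line marks equal TPM. miR-19a-3p, miR-19b-3p and miR-32-5p lie above the line.

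The summed guide strands of miR-106b-25 had 20275 TPM in control and 17219 TPM in knockdown SPCs, a log2 ratio of -0.24 (-0.25 to -0.22) that turned to 0.016 after median ratio scaling, and none of the 3 passed 1.5-fold. The 4 other guide strands of miR-106a-363 had 180 and 26 reads and a log2 ratio of -1.06 (-1.73 to -0.47). Of the 172 miRNAs outside the cluster above 100 TPM in both libraries, those nearest to the summed miR-17-92 guide strands in log2 ratio were miR-192-5p, miR-140-3p, miR-214-3p (also among the fibroblast markers below), miR-301b-3p and miR-465b-5p. Their log2 ratios lay between -0.42 and -0.39, a likeness over 2 libraries only.

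Marker miRNAs of several cell types also differed between the libraries, where 391 of all 607 miRNAs were below 0 (64.4%). The marker lists were chosen with earlier results of these data known, so their direction is no independent finding. Of 10 miRNAs known from fibroblasts and mesenchyme, 8 were above 0, and the median log2 ratio of the 10 was 0.43. Their summed level was 133018 TPM in control and 213468 TPM in knockdown SPCs (log2 ratio 0.68). Of this sum miR-21a-5p alone gave 51967 and 107056 TPM (log2 ratio 1.04). The paper also names miR21a as critical for SPC fate. By RT-qPCR it reports lower mature miR21a in knockdown SPCs, the opposite direction to the value here. Of 13 germ and stem cell miRNAs listed, miR-202-5p was not found among the miRNAs measured. Of the other 12, 11 were below 0, with a median log2 ratio of -0.62 over the 12, while miR-34c-5p was at 0.89. The sum of the 12 was 163283 and 128010 TPM (log2 ratio -0.35), of which miR-182-5p alone gave 142065 and 103395 TPM. The 6 blood cell miRNAs were all below 0, from 275.9 to 130.2 TPM in sum. Of this sum miR-142a-5p gave 158.1 and 28.8 TPM, and miR-155-5p gave 100.2 and 95.5 TPM. miR-223-3p and miR-451a were under 1.5 TPM in both libraries and are not among the 607. None of the markers found was at 0 reads in either library. The feeder fibroblasts are of mouse origin, and their share in the values of the miR-17-92 members was not tested. With small RNA of whole cultures, fewer cells of a type and less of a miRNA per cell cannot be told apart.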

How the data were processed

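Size-selected small RNA of control and Mov10 knockdown SPCs was sequenced as 1 library per group. The methods speak of triplicate samples, and whether these were pooled is not stated. The authors checked reads with KASAVA, removed rRNA and adaptors with Fastx and mapped reads to miRBase 21 with CLC Genomics Workbench 5.5 without mismatch. The authors deposited raw read counts per mature miRNA. They also deposited TPM, the counts per 1000000 of a library total. How reads shared by hairpins were counted is not stated in the sources used here, and the submitters' processing notes also name Cufflinks 2.1.1. RNA-seq and CLIP-seq samples were not analysed here.

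Library totals were worked out from counts and TPM, and every miRNA gave the same total. Log2 ratios used a pseudocount of 0.1 TPM, with exact conditional (Clopper-Pearson) intervals of the read ratio. Ratios between miRNAs used conditional odds ratios with exact intervals. With 1 library per group no test of the conditions was possible, and no p-value is given. PCR reads without molecular identifiers are not independent molecules, so intervals and the limit of 3 reads cover counting error only. The miRNAs named are all members, the miR-106b-25 and miR-106a-363 guide strands, those sharing a seed, the 5 nearest in ratio and the marker lists, and members and lists were chosen with earlier results of these data known. Interval scripts were tested on simulated data. Alternatives were other scalings (reads on miRNAs, median ratio, TMM of edgeR 4.0.16 over all miRNAs, a common total of 30000000 reads taken from earlier work on these data), minima, folds and pseudocounts. Intervals came from scipy 1.17.1, tables from pandas 2.3.3 and numpy 2.4.6, and figures from matplotlib 3.10.9, under Python 3.11.15 and R 4.3.3.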

Additional observations from a re-analysis of the deposited data

How the results depend on the processing

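No paired analysis was possible because control and knockdown have a single library each. The log2 ratio of the summed guide strands was -0.41 with the deposited TPM, -0.35 with reads on miRNAs as the total, -0.16 with the median ratio, -0.19 with TMM factors and -2.13 with a common total of 30000000 reads. The median of the 6 guide strands was -0.43, and -0.17 with the median ratio, -0.21 with TMM, -2.14 with the common total and -0.53 without miR-19b-3p and miR-92a-3p. The scalings move every miRNA alike except through the pseudocount, which changes the shift of the scarcest members under the common total. The median log2 ratio set to 0 by the median ratio scaling was -0.25, taken over the miRNAs above 1.5 TPM in both libraries and not over all 607. Guide strands called reduced numbered 2, then 1 with reads on miRNAs, 0 with the median ratio, TMM or a 2-fold threshold, and 6 with the common total. None was called raised, but 1 was with reads on miRNAs, the median ratio or TMM. Members called reduced numbered 5, then 2 with the median ratio or a 2-fold threshold, 3 with TMM and 10 with the common total. Members called raised numbered 1, then 2 with reads on miRNAs, the median ratio, TMM or no minimum (where the second is miR-92a-2-5p at 0 and 1 read), and 0 with the common total, a minimum of 10 TPM or of 1.5 TPM in both libraries. Over all miRNAs, the 252 reduced and 96 raised became 243 and 112 with reads on miRNAs and 201 and 145 with TMM. They became 191 and 144 with the median ratio, 445 and 10 with the common total, and 161 and 40 at 2-fold. Without a minimum they were 561 and 186, with a minimum of 10 TPM 157 and 53, and with 1.5 TPM in both libraries 194 and 75. These scalings and minima change how many miRNAs are counted, so no shares are given. miR-19a-3p reversed to -1.38 and miR-19b-3p to -1.16 with the common total, and among scalings of summed families, added after the data were seen, the seed AAAGUGC turned to 0.026 and miR-106b-25 to 0.016 with the median ratio, and the seed GUGCAAA to -1.19 with the common total. Of 72 single-miRNA log2 ratios under alternatives, 48 stayed within their main interval. These 48 include every change of the pseudocount, so all values that left their interval did so under another scaling. The ratios between guide strands need no scaling. All 15 stayed within their intervals when 0.5 read was added to each count. With 124 reads or more per guide strand this could not have been otherwise, so it is no check of the ratios. At this depth, the scarcest members (miR-19a-5p, miR-19b-1-5p, miR-92a-2-5p and, in the knockdown, miR-17-3p and miR-20a-3p) have intervals too wide to place their ratio closely.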
